A study of Mus musculus with 15 samples.

Results

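The Ifit family, genes encoding interferon-induced proteins with tetratricopeptide repeats, was followed across 15 expression arrays of Myc-CaP cells, a mouse line established from a prostate cancer driven by a Myc transgene. Its 4 members here are Ifit1, Ifit2, Ifit3 and Ifit3b, out of 19297 genes measured by a probe set with a single gene symbol. A member was any probe set whose only symbol in the platform annotation was one of these names. Probe sets were chosen by their mean over all 15 arrays, the highest one per gene, but each member had 1, so no measured value decided which are described. The family itself was picked with earlier results of these arrays known, so its differences from the vector are described as values of a fit over all genes and are no independent evidence.

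All cells had been transfected and selected and were harvested at confluence, the controls included. They carried either the vector alone (VEC), Twist1 in its wild-type form (WT), or a form of Twist1 called AQA, DQD or F191G, with 3 arrays for each of these 5 groups, named A, B and C. The series concerns mutation of the Twist box, a conserved stretch of Twist1, and the labels do not spell out what AQA and DQD stand for, which promoter drives the transgenes, or whether the selected cells were pools or single clones. They also do not say whether A, B and C are separate cultures, so p-values reflect only how far these arrays scatter, and that scatter may be technical. An array batch, A (8 arrays) or B (7 arrays), is labelled, and each group spans both. Levels are deposited log2 values, on which a difference of 1 is a doubling.

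Ifit genes are induced by type I and type III interferons and by viral RNA. Interferon receptors activate the kinases Jak1 and Tyk2, these activate Stat2, and Stat2 with Irf9 is part of a factor that binds the interferon-stimulated response element in promoters. Ifit proteins act on foreign RNA and translation: Ifit1 binds mRNA caps that lack methylation of the first nucleotide's ribose, several members bind the initiation factor eIF3, and in human cells IFIT2 and IFIT3 assemble with IFIT1 into one complex. Twist1 is a basic helix-loop-helix factor that binds E-boxes and is known for its role in epithelial-mesenchymal transition.

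The members lie in one cluster of 6 genes spanning 112.4 kb of mouse chromosome 19 (GRCm38.p6), which also holds the annotated genes Ifit1bl1 and Ifit1bl2. Upstream sequences of all 4 members were found in RefSeq's promoters of that build. In 3 of the 4, the 250 bases before the start given there held matches to GAAANNGAA, a core of the interferon-stimulated response element. These 3 are shown 5′ to 3′ on the strand of the gene because they hold the matches, which the Ifit2 windows lack. Capitals mark the matches, which all read TTCNNTTTC here, the motif on the opposite strand. The windows are chr19:34640639-34640888 for Ifit1, chr19:34583279-34583528 for Ifit3 and chr19:34607707-34607956 for Ifit3b, each on the plus strand. The annotated Ifit1 gene begins right after its window, at 34640889. The annotated Ifit3 and Ifit3b genes begin at 34583119 and 34607530, so their windows lie inside these genes.
Ifit1: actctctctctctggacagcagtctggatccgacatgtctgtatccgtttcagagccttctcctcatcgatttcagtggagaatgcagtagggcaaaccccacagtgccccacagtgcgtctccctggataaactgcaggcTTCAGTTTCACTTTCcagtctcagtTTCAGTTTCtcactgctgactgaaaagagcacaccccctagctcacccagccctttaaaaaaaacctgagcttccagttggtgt
Ifit3: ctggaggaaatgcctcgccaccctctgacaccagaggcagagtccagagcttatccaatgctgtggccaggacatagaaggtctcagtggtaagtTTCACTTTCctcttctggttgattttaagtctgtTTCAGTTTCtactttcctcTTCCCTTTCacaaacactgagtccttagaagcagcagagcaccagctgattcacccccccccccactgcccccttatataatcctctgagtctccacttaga
Ifit3b: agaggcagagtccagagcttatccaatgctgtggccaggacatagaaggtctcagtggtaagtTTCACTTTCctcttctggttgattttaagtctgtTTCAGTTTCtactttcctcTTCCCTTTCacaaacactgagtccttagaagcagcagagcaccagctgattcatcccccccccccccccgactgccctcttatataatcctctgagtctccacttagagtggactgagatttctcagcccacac

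Each of these windows held 3 matches, whereas 7.13% of the 32851 promoters in the table held any and 0.469% held at least 2 matches. In Ifit1 the matches began 109, 103 and 84 bases before the start, and the first pair overlap. In Ifit3 they began 155, 121 and 102 bases before the start that follows its window, which is not where the annotated gene begins. The Ifit3b window is nearly the same sequence as that of Ifit3: 217 of 224 aligned positions were identical (96.9%), and 6 of the other 7 were gaps. Neither of the 2 Ifit2 windows held a match, which says only that these letters are not in those windows. The annotated Ifit2 gene begins at 34550550. The window at chr19:34550444-34550693 reaches across that position, and the one at chr19:34550838-34551087 lies inside the gene. An E-box, CANNTG on either strand, occurred once in the Ifit1, Ifit3 and Ifit3b windows and in 1 of the Ifit2 windows, against 66.2% of all promoters. The E-box spelling CATCTG (14.4% of promoters, its matches counted within CANNTG too) and the TATA sequence TATAAA (12.4%) were in none of the members' windows. Only these exact letters were searched, and the Ifit3 and Ifit3b windows both hold the similar spelling TATATAAT. A match is a description of the reference sequence and not a measured binding site.

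Ifit3 showed the family's largest difference from the vector in every Twist1 form. In VEC it read 4.40, 4.90 and 3.52 on arrays A, B and C. In WT it read 9.76, 9.46 and 8.67, in AQA 8.70, 6.81 and 7.77, in DQD 6.23, 7.91 and 6.99, and in F191G 7.48, 8.44 and 8.19. Every array with a Twist1 form lay above every VEC array, and WT lay above all DQD and F191G arrays. In limma's fit the WT rise was 5.02 (SE 0.525, adjusted p = 0.00091), or 32.4-fold. The rise was 3.76 in F191G (SE 0.537, adjusted p = 0.0277), 3.49 in AQA (SE 0.525, adjusted p = 0.0176) and 2.77 in DQD (SE 0.537, adjusted p = 0.0474). By size these were the largest of all 19297 differences in WT, AQA and F191G and the 4th largest in DQD. Since RNA was taken from whole cultures, more cells with the transcript and more transcript per cell cannot be told apart.

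Single arrays bore on these calls to different degrees. The WT call held with any of the 15 arrays left out, at 4.55 to 5.41. The AQA call was lost without VEC A, VEC C, AQA A or AQA C, and the F191G call without VEC A, VEC C, any F191G array, AQA C or DQD C. The DQD call held in only 4 of the 15 fits, those without WT A, AQA A, AQA B or AQA C. With the Twist1 reading as a covariate the WT rise was 4.01 and passed, and the differences of 2.79 in AQA, 1.79 in DQD and 2.86 in F191G did not. Within batch A, which holds VEC A and B, the differences were 4.95 (WT), 3.10 (AQA), 1.58 (DQD) and 2.83 (F191G). Within batch B, where VEC C is the only control and the lowest of the VEC arrays, they were 5.15, 4.25, 3.93 and 4.80 in the same order.

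Ifit3b, a near copy of Ifit3 in the mouse genome, had a similar order of groups at a lower reading. Its VEC arrays read 2.66, 3.25 and 2.85, and its WT arrays 6.98, 6.06 and 5.42. AQA read 5.90, 4.63 and 4.53, DQD 3.21, 4.83 and 3.84, and F191G 4.07, 5.12 and 4.67. WT lay above all DQD and F191G arrays, and DQD A alone among the form arrays fell within the VEC range. The WT rise of 3.23 (SE 0.482, adjusted p = 0.00462) was the 4th largest of all genes and held with any array left out. The differences of 2.10 in AQA (adjusted p = 0.0629), 1.70 in F191G (0.221) and 1.04 in DQD (0.221) did not pass the test. The AQA difference passed without WT A. The sources used here do not say how the probes divide between the 2 copies, so part of the Ifit3b signal may come from Ifit3 transcripts or the reverse.

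**Figure D1:**
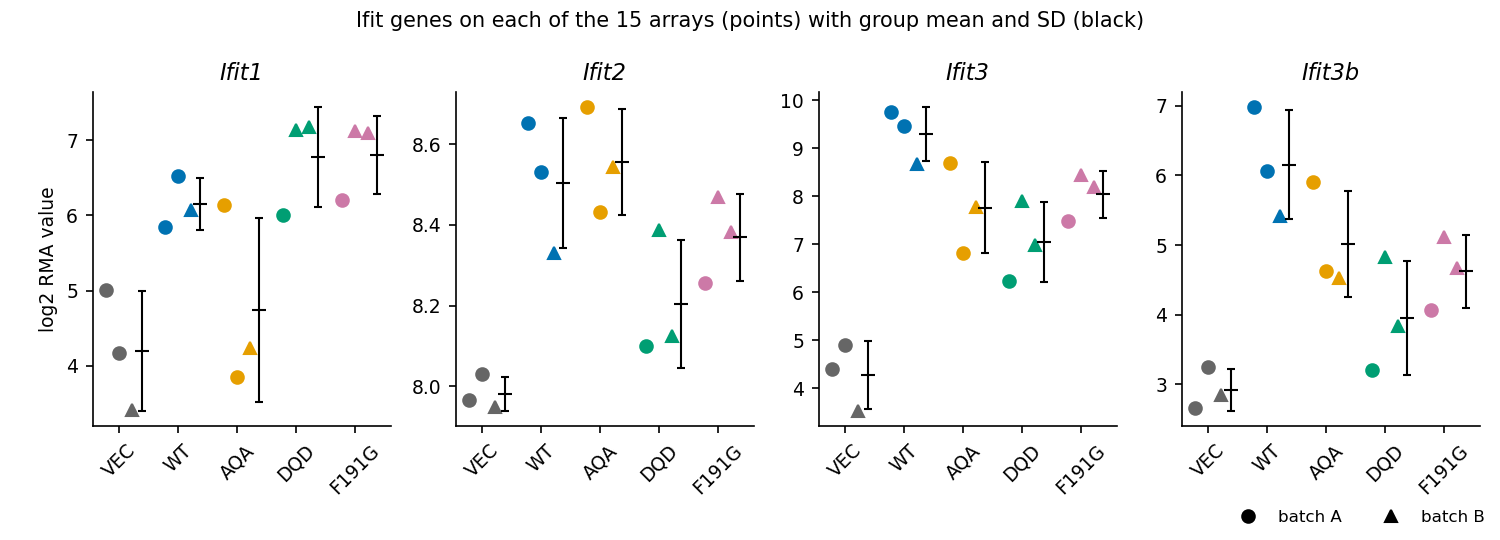
Log2 RMA value of each Ifit gene (one panel each, with its own vertical scale) on every array, by group; circles are batch A, triangles batch B, and black marks give the mean and SD of 3 arrays. Ifit3 was above 6 on all 12 form arrays and below 5 on the VEC arrays, and Ifit1 was near the VEC arrays on 2 of the 3 AQA arrays.

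Ifit2, which binds RNA and partners other Ifit proteins, already read high in the vector and moved within a narrow range. Its VEC arrays read 7.97, 8.03 and 7.95. WT read 8.65, 8.53 and 8.33, AQA 8.69, 8.43 and 8.54, DQD 8.10, 8.39 and 8.13, and F191G 8.26, 8.47 and 8.38. All 12 form arrays exceeded all VEC arrays, DQD by the least, and every AQA array exceeded every DQD array. The rises were 0.57 in AQA (SE 0.103, adjusted p = 0.0307) and 0.52 in WT (SE 0.103, adjusted p = 0.0105). The differences of 0.39 in F191G (adjusted p = 0.202) and 0.22 in DQD (0.216) did not pass. The WT call was lost only without VEC C among the left-out arrays, and the AQA call without any one of VEC A, VEC C, AQA A, AQA C, DQD C or F191G C. Within batches A and B the WT difference was 0.59 and 0.38, and the AQA difference 0.56 and 0.60. The readings spanned 0.74 over all arrays, against 6.24 for Ifit3.

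Ifit1, the cap-binding member, followed another order of groups. VEC read 5.00, 4.17 and 3.40, and WT 5.85, 6.53 and 6.07. AQA read 6.13, 3.85 and 4.24, DQD 6.01, 7.14 and 7.18, and F191G 6.20, 7.12 and 7.09. All WT, DQD and F191G arrays lay above all VEC arrays, whereas AQA B and AQA C lay within the VEC range and AQA A above it. The WT rise was 1.96 (SE 0.555, adjusted p = 0.0378). The differences in DQD (2.58, SE 0.569, adjusted p = 0.0508) and F191G (2.61, SE 0.569, adjusted p = 0.117) were larger in size and missed the threshold, and AQA differed by 0.55 (SE 0.555, adjusted p = 0.661). The WT call was lost without WT A, WT B, WT C, VEC B, VEC C, DQD C or F191G C. With the Twist1 reading as a covariate the WT difference was 0.97 (adjusted p = 0.33). In batch A the WT, AQA, DQD and F191G differences were 1.60, 0.41, 1.42 and 1.61. In batch B, against VEC C alone, they were 2.67, 0.83, 3.76 and 3.70.

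**Figure D2:**
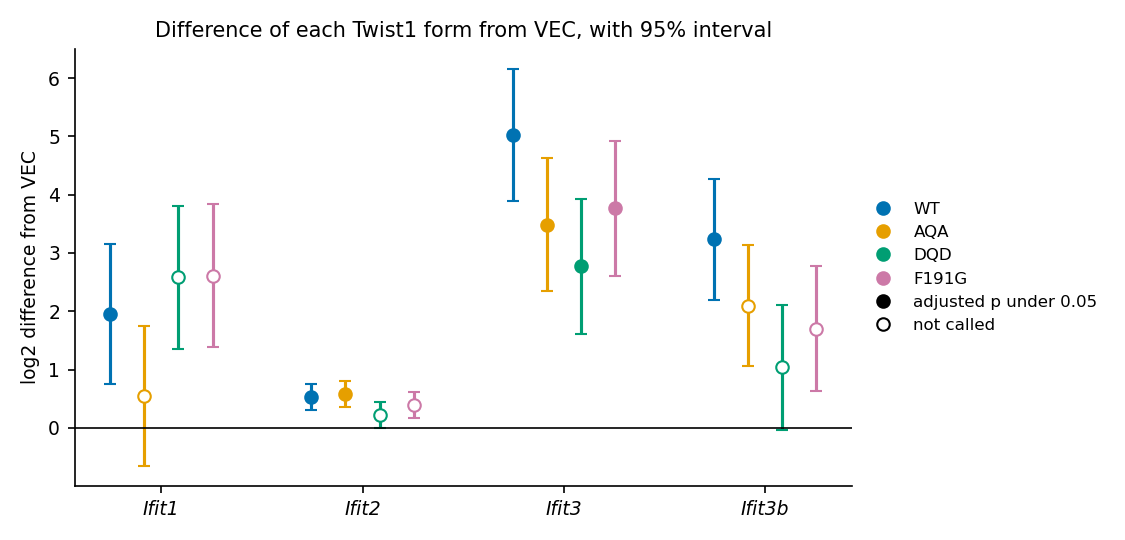
Log2 difference of each Twist1 form from VEC (vertical axis) for the 4 Ifit genes, with 95% intervals of the limma fit; filled points have an adjusted p under 0.05. Ifit3 is filled for all 4 forms, Ifit2 for WT and AQA, and Ifit1 and Ifit3b for WT.

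Counted over the family, all 4 members rose in WT, where 7.06% of all genes were called higher, with a median member difference of 2.60 against -0.01 over all genes. In AQA 2 of 4 rose (0.513% of all genes, medians 1.34 and -0.04). In DQD 1 of 4 rose (0.415%, medians 1.81 and -0.05) and in F191G 1 of 4 (0.0466%, medians 2.16 and -0.03). In the mean of the 4 forms against VEC, 3 members rose (0.788% of all genes): Ifit3 by 3.76, Ifit3b by 2.02 and Ifit2 by 0.43, with Ifit1 at 1.92 (adjusted p = 0.0563). Without VEC C none of the 4 passed in that pooled comparison, and Ifit3 then differed by 3.24 (adjusted p = 0.0743). Left-out arrays moved the count from 2 to 4 in WT (2 without VEC C), from 0 to 3 in AQA, and from 0 to 2 in DQD and F191G.

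By ranks alone, every form array exceeded every VEC array for all 4 members in WT (15.2% of all genes) and in F191G (7.76%), for 3 in AQA (9.62%) and for 3 in DQD (12.8%). Over all 12 form arrays this held for Ifit2 and Ifit3 (1.3% of all genes). Ifit1 failed it through AQA B and C, and Ifit3b through DQD A.

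Set against wild-type Twist1, the DQD form had less of both Ifit3 copies. Ifit3 fell by 2.25 (SE 0.537, adjusted p = 0.0168) and Ifit3b by 2.20 (SE 0.494, adjusted p = 0.0146), where 12.8% of all genes were called lower. Both calls were lost without DQD A, the lowest DQD array for each. In batch A the Ifit3 and Ifit3b differences were -3.38 and -3.31, and in batch B -1.22 and -1.09. Ifit1 differed by 0.63 (adjusted p = 0.42) and Ifit2 by -0.30 (adjusted p = 0.053).

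In the AQA and F191G forms against WT, none of the 4 members passed by limma's adjusted p, though 3 and 2 members were under 0.05 before adjustment. So were at least 4092 and at least 4681 of all 19297 genes. Of all genes 0.42% and 3.95% were called lower in these comparisons. Ifit3 differed by -1.53 in AQA (95% interval -2.67 to -0.40) and by -1.25 in F191G (-2.42 to -0.09). For Ifit3b the differences were -1.14 (-2.18 to -0.10) and -1.53 (-2.60 to -0.46), the latter passing without WT C. For Ifit1 they were -1.41 (-2.61 to -0.21) and 0.66 (-0.57 to 1.89).

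Among the 3 mutant forms no member passed the test. Called genes of any kind were 0.0259% between DQD and AQA, 0.0104% between F191G and AQA and 0.00518% between F191G and DQD, and 2, 1 and 0 members had an unadjusted p under 0.05. At least 2141 of all 19297 genes had one between DQD and AQA, and fewer than 3256 between F191G and AQA. Ifit1 had the largest difference of all 19297 genes by size in both comparisons with AQA. It was 2.03 higher in DQD (95% interval 0.81 to 3.26, adjusted p = 0.155) and 2.06 higher in F191G (0.83 to 3.29, adjusted p = 0.177). The arrays of AQA spread over 2.28 for Ifit1, wider than in any other group. Without AQA A the differences were 2.69 and 2.72. Ifit2 ran the other way between DQD and AQA, at -0.35 (-0.58 to -0.12), and Ifit3 differed by -0.72 (-1.88 to 0.45). F191G and DQD were closest for Ifit1, at 0.03 (-1.17 to 1.23), while Ifit3 differed by 0.995 (-0.14 to 2.13).

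Over the 15 arrays, which share groups and batches, Ifit3 and Ifit3b correlated at Pearson r 0.927, Ifit2 and Ifit3b at 0.917, and Ifit2 and Ifit3 at 0.888. Ifit1 correlated less with each, at 0.631 with Ifit3, 0.412 with Ifit3b and 0.321 with Ifit2. With group and batch means removed, the pairs among Ifit2, Ifit3 and Ifit3b stood at 0.849 to 0.938 and those with Ifit1 at 0.523 to 0.753. These values describe the arrays, and the difference between the members' patterns was not tested.

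**Figure D3:**
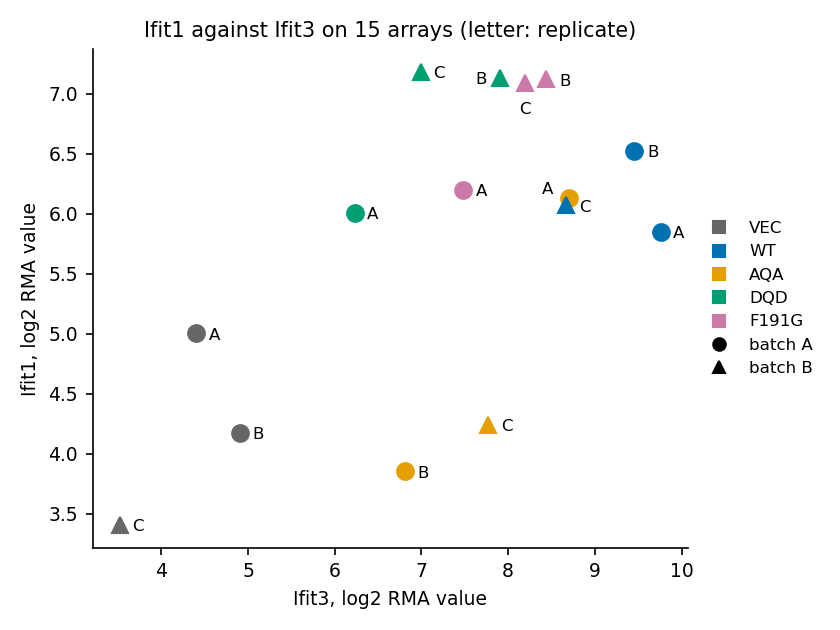
Log2 RMA value of Ifit1 (vertical) against Ifit3 (horizontal) on the 15 arrays; colour gives the group, shape the batch and the letter the replicate. AQA B and C lie at the Ifit1 readings of VEC (3.85 and 4.24) with Ifit3 readings of 6.81 and 7.77, and the DQD arrays combine the highest Ifit1 reading with Ifit3 readings below WT.

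The AQA arrays showed the separation within one group. On AQA A both Ifit1 (6.13) and Ifit3 (8.70) were high, while on AQA B and C Ifit1 read 3.85 and 4.24 beside Ifit3 at 6.81 and 7.77. A list of 39 other measured interferon-stimulated effector genes gives a view of the same arrays. On AQA A 34 of the 39 exceeded every VEC array, with a median of 0.80 above the VEC mean. On AQA B and C 6 and 7 of the 39 did, with medians of -0.04 and 0.07. On each of the other 9 form arrays the number was 33 to 38, and over all genes 22.3% to 35.3% exceeded every VEC array on the 12 form arrays. AQA B and C were thus near the vector for Ifit1 and for most of these effectors, and above it for Ifit2, Ifit3 and Ifit3b.

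Usp18, the protease that removes Isg15 from proteins and restrains interferon receptor signalling, shows this array by array. It read 5.69, 4.52 and 4.18 in VEC, 6.26, 7.59 and 7.21 in WT, and 7.34, 4.74 and 4.78 in AQA. In DQD it read 6.75, 7.78 and 8.17 and in F191G 6.96, 7.57 and 7.70. Its order of arrays was close to that of Ifit1 (r 0.981 over 15 arrays). It rose in WT by 2.22 (SE 0.645, adjusted p = 0.0409), a call lost in 8 of the 15 fits with an array left out.

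The genes most like the mean of the 4 members over the 15 arrays were Trim14 (r 0.963), Psme1 (0.950), Ctso (0.925), Ddx58 (0.912), Stat2 (0.911), Lgals8 (0.905), Rnf213 (0.904) and Stk40 (0.896). Trim14 is an adaptor in antiviral signalling, Psme1 a subunit of the proteasome activator PA28, Ctso a cysteine protease, Ddx58 the RNA sensor RIG-I and Rnf213 a large ubiquitin ligase. All 8 rose in WT, by 0.37 (Stk40) to 1.996 (Ddx58), each with an adjusted p of 0.0379 or less. They were picked for following the members on these same arrays, so a rise in WT was largely built into the choice. Without VEC C only Ctso of these 8 was still called. Ctso also rose in AQA by 0.65 (adjusted p = 0.0254) and in DQD by 0.63 (adjusted p = 0.0454), a DQD call kept in 6 of the 15 fits with an array left out.

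Likeness to Ifit1 alone, a choice made after its levels had been seen, gave a list with none of those 8 genes. It was led by Oas3 (r 0.984), Usp18 (0.981), Xaf1 (0.981), Bst2 (0.981), Parp9 (0.978), Mx2 (0.978), Rtp4 (0.976) and Ddx60 (0.973), which are interferon-stimulated genes by textbook knowledge. Oas3, an RNA-activated synthetase, was 1.36 above VEC in WT, and 0.34 above it in AQA, with 1.83 for DQD and 1.63 for F191G. Its WT rise passed (adjusted p = 0.0469), as did those of Usp18, Xaf1, Bst2 and Rtp4. The WT differences of Parp9 (0.05455), Mx2 (0.0898) and Ddx60 (0.0613) did not pass. All were picked for following Ifit1 on these same arrays, so sharing its WT rise was partly built into the choice.

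**Figure D4:**
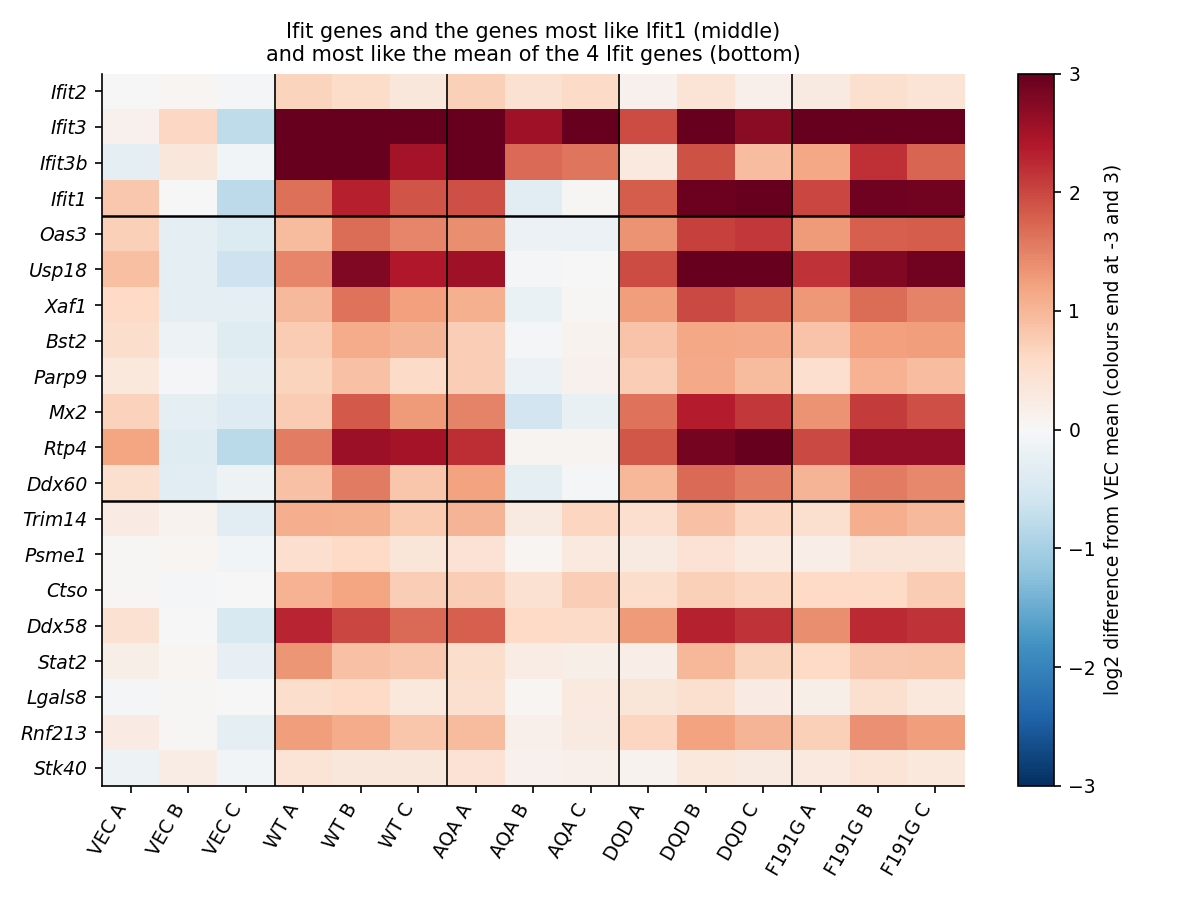
Log2 difference from the VEC mean (colour) on each array (columns, by group) for the 4 Ifit genes (top), the 8 genes most like Ifit1 (middle) and the 8 most like the mean of the 4 (bottom). Ifit3 is red on all AQA arrays, while Ifit1 and Usp18 are near white on AQA B and C.

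The pathway upstream of these genes was read from lists written with earlier results known. Of 20 measured interferon ligands and receptors, 3 rose in WT: the type I receptor chain Ifnar1 by 0.32 (adjusted p = 0.0185) and the interferon gamma receptor chains Ifngr1 by 0.40 (0.012) and Ifngr2 by 0.63 (0.0183). Of all genes 7.06% were called higher in WT. None passed in the other forms, where 1 (AQA), 4 (DQD) and 1 (F191G) had an unadjusted p under 0.05. Of all 19297 genes, at least 4487 in DQD were also under 0.05 before adjustment. The number was below 5179 in AQA and below 2310 in F191G. In WT Ifnar2 differed by 0.17 (adjusted p = 0.443). Ifnb1, the interferon beta gene, read 4.06 to 4.36 on all arrays and differed from VEC by between -0.05 and 0.03 in the 4 forms. No ligand transcript of the list passed the test in any form.

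Of 14 measured signalling factors, Stat2, Irf9 and Irf7 rose in WT. Over all genes 7.06% were called higher in WT and 0.415% in DQD. Irf9, the DNA-binding partner of Stat2, read 6.95, 6.59 and 6.37 in VEC and 7.81, 7.84 and 7.64 in WT, a rise of 1.12 (SE 0.214, adjusted p = 0.00989). In DQD, at 7.32, 7.91 and 8.02, it rose by 1.11 (adjusted p = 0.0481), and in F191G it differed by 1.12 (0.0947) and in AQA by 0.24 (0.618). Stat2 rose in WT by 0.997 (adjusted p = 0.00992). Irf7, which amplifies interferon responses, rose in WT by 2.18 (0.0307), with 2.28 in DQD (0.069), 2.19 in F191G (0.206) and 0.25 in AQA (0.872). As with Ifit1, AQA stood closest to VEC. Jak1 (-0.07, adjusted p = 0.545) and Tyk2 (0.21, 0.218) did not pass in WT. Irf1, a factor induced by interferon gamma, differed by 0.49 for WT and by -0.98, -1.34 and -1.17 for AQA, DQD and F191G, and passed in none.

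Among 15 nucleic acid sensors and their partners 3 rose in WT: Ddx58 by 1.996 (SE 0.371, adjusted p = 0.0091), Mavs, the mitochondrial adaptor of RIG-I, by 0.26 (0.0169), and Trim25, a ligase that acts on RIG-I, by 0.59 (0.0327). The shares of all genes called higher were 7.06% in WT and 0.415% in DQD. In DQD Ddx58 rose by 1.92 (0.0481), Trim25 by 0.91 (0.0454) and the double-stranded RNA kinase Eif2ak2 by 1.16 (0.0479). Each of these 3 calls, like that of Irf9 in DQD, was kept in 5 of the 15 fits with an array left out and lost without DQD A, DQD B, DQD C, VEC B, VEC C, WT B, WT C or any F191G array. None passed in AQA or F191G, where 4 and 6 had an unadjusted p under 0.05 by limma. Of all 19297 genes, fewer than 5179 in AQA and fewer than 2310 in F191G were under 0.05 before adjustment. Ifih1, the sensor MDA5, differed by -0.04 in WT (adjusted p = 0.73) and did not pass in any form. Ifi203 differed by 0.68 in the mean of the 4 forms against VEC (adjusted p = 0.0782).

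Of the 39 other interferon-stimulated effectors, 26 rose in WT and none fell (median 0.87), in DQD 9 rose (median 0.94), and in AQA and F191G 1 rose, Ifi27 (medians 0.23 and 0.83). The shares of all genes called higher were 7.06% in WT, 0.415% in DQD, 0.513% in AQA and 0.0466% in F191G. Ifi27, an interferon-induced gene, rose in all forms, by 1.05 for WT (adjusted p = 0.0049), 1.14 for AQA (0.0123), 1.28 for DQD (0.0264) and 1.39 for F191G (0.00801). Its WT call held with any of the 15 arrays left out. The AQA, DQD and F191G calls were each kept in 12 of the 15 fits. All of these were lost without VEC C, and also without AQA A or C, DQD B or C, and F191G A or C, respectively. Oas1b rose by 1.45 in WT (adjusted p = 0.0127) and by 1.73 in DQD (0.0454). Parp14 rose by 1.16 in WT (0.0123) and 1.22 in DQD (0.0482). Lgals3bp rose by 3.16 in WT (0.0033), a call held with any of the 15 arrays left out. Its differences of 0.97 in AQA (0.294), 2.05 in DQD (0.0506) and 2.09 in F191G (0.103) did not pass. The DQD calls of Oas1b and Parp14 were kept in 5 of the 15 fits with an array left out. Rsad2, the antiviral enzyme viperin, rose in WT by 0.80 (adjusted p = 0.0469), a call kept in 4 of them. At an unadjusted p under 0.05 the numbers were 34 in WT, 34 in DQD, 31 in F191G and 6 in AQA. Of all 19297 genes, at least 4489 in WT and at least 4487 in DQD were also under 0.05 before adjustment. The number was below 2310 in F191G and below 5179 in AQA. The WT count of called effectors was 2 without VEC C. The DQD count of called effectors was 0 without VEC C, DQD B or DQD C and 22 without WT A.

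Of 13 genes that restrain interferon responses, Usp18 and Pias1 rose in WT, and Rnaseh2a, Rnaseh2b and Rnaseh2c, the subunits of the enzyme that removes ribonucleotides from DNA, fell by 0.28, 0.79 and 0.37. The Rnaseh2b difference was -0.50 without WT A, and its call was lost without VEC A or VEC C. The Rnaseh2a call was kept in 4 of the 15 fits with an array left out and the Rnaseh2c call in 8. In WT 7.06% of all genes were called higher and 5.72% lower. Socs1, an inhibitor of Jak kinases, differed by 0.06 (adjusted p = 0.594). Adar differed by 0.43 in the mean of the 4 forms against VEC (adjusted p = 0.12). None of the 13 passed in the other forms by limma, with 4, 3 and 5 at an unadjusted p under 0.05 in AQA, DQD and F191G. Of all 19297 genes, at least 4487 in DQD were also under 0.05 before adjustment. The number was below 5179 in AQA and below 2310 in F191G.

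Of 17 measured genes for cap methylation, cap binding and eIF3, the machinery on which Ifit proteins act, 1 rose and 3 fell in WT. Over all genes 7.06% were called higher there and 5.72% lower. Eif3f rose by 0.39, and the cap methyltransferase gene Cmtr2 fell by 0.21, the cap-binding subunit gene Ncbp2 by 0.33 and Eif3i by 0.20. In AQA Ncbp2 fell by 0.36 (adjusted p = 0.0454, with 0.368% of all genes called lower), and none passed in DQD or F191G. That AQA call was kept in 3 of the 15 fits with an array left out, those without WT A, WT C or F191G A, and the WT call of Eif3i in 1. Eif3c and Eif3e, whose products Ifit proteins are known to contact, differed by -0.18 (adjusted p = 0.0789) and -0.02 (0.896) in WT, and the cap methyltransferase gene Rnmt by 0.09 (0.416). Without VEC C all calls in WT were lost in the lists of ligands and receptors, signalling factors, sensors, restraint genes and cap or eIF3 genes.

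Of the 12 measured neighbours of the cluster, 6 on each side, 1 rose in WT, where 7.06% of all genes did. This was Lipa, a lysosomal lipase gene and the nearest on the Ifit2 side, at 0.75 (SE 0.122, adjusted p = 0.0059), against 0.52 for Ifit2, and its call was lost without VEC C. It differed by 0.48 in AQA, 0.30 in DQD and 0.21 in F191G, none of which passed. The other 11, Ankrd22, Stambpl1, Acta2, Fas, Ch25h, Slc16a12, Pank1, Mir107, Kif20b, Htr7 and Rpp30, did not pass in any form. Their WT differences ran from -0.94 (Kif20b, adjusted p = 0.0952) to 0.30 (Mir107).

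Within the cluster, Ifit1bl2 lies beside Ifit1 on the opposite strand and has 2 upstream windows. The one at chr19:34640744-34640993 overlaps the Ifit1 window and held 3 GAAANNGAA matches, and the other, at chr19:34629812-34630061, held 0. Ifit1bl2 read 3.37, 3.09 and 2.86 in VEC and 3.44, 4.37 and 3.30 in DQD. Its WT and AQA differences from VEC were 0.17 and -0.05, and those of DQD and F191G 0.59 and 0.44, with adjusted p-values of 0.203 or more. The larger values were in the forms where Ifit1 was also highest. Ifit1bl1 was not analysed here.

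**Figure D5:**
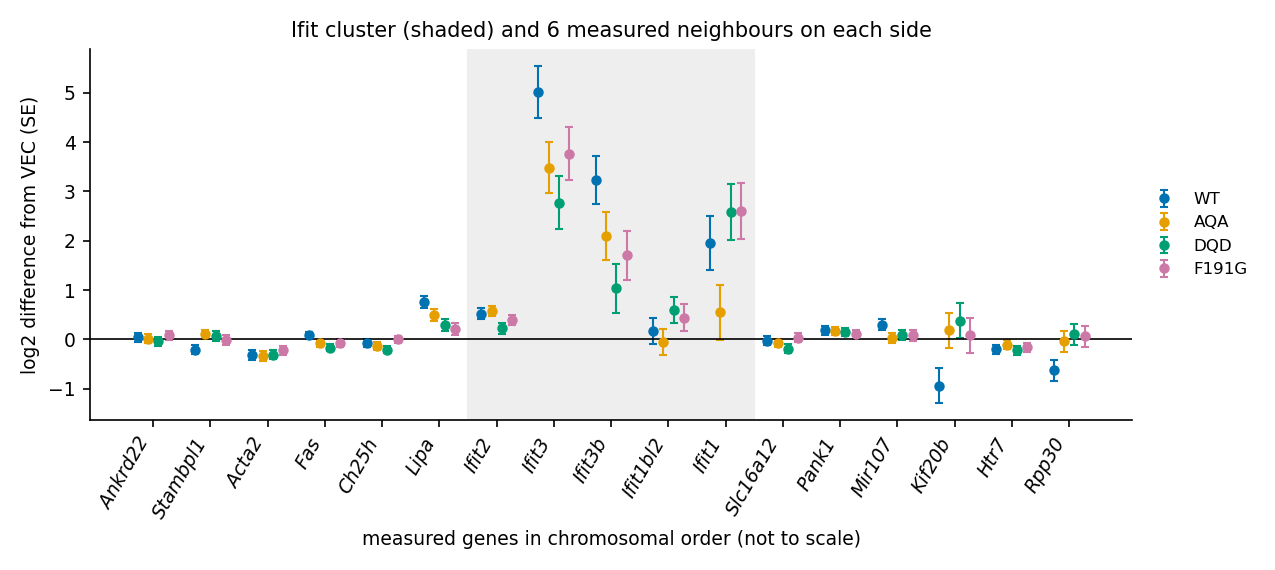
Log2 difference from VEC with SE (vertical) for each Twist1 form, for the Ifit cluster (shaded) and its 6 measured neighbours on each side in chromosomal order, not to scale. Ifit3, Ifit3b and Ifit1 stand above 1 in at least 3 of the 4 forms, and the neighbours lie between -0.94 and 0.75.

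The lowest correlation between any pair of arrays over genes was 0.969 and involved WT A, without which it was 0.990. Twist1 read 6.43 ± 0.29 in VEC and 6.68 to 6.79 in the forms (mean of 3, SD 0.06 to 0.24), and its difference from VEC passed in none. Array means of 18 haematopoietic markers ran from 4.79 to 5.00 and those of 15 fibroblast and endothelial markers from 5.34 to 5.61. Of these only Cd68 was called, up 0.61 in WT, a lysosomal protein gene. In WT 7.06% of all genes were called higher, and 5.72% were called lower. Among 18 epithelial and prostate markers Folh1 rose in WT, DQD and F191G, Krt15 fell in WT, AQA and DQD (0.399% of all genes were called lower in DQD), and Krt19 fell in WT by 2.13. The Krt19 difference was -1.25 without VEC A and -2.90 without VEC B, and its call was lost without WT A or VEC C. The Cd68 call was lost without VEC A, WT A or VEC C, and the Krt15 call in DQD was kept in 5 of the 15 fits. The epithelial marker Epcam (4.82 to 5.15) and the prostate marker Pbsn (2.05 to 2.24) showed low readings on all arrays, and no detection calls were used here. Cdh1 (5.40 to 5.75), Krt18 (5.58 to 6.04), Tmprss2 (5.42 to 5.77) and Cldn7 (5.28 to 5.71) also stayed under 7. Of the 18, 8 read above 7 on at least 1 array, among them Foxa1 (10.97 to 11.38), Cldn3 (10.57 to 10.95), Hoxb13 (7.04 to 8.18) and Krt8 (7.35 to 8.89). Whether any of these shifts bears on the Ifit readings was not tested.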

How the data were processed

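Total RNA of 15 samples was labelled and hybridised to one-colour Affymetrix Mouse Gene 1.0 ST arrays. The deposited values are log2 intensities per probe set, made by the authors with RMA, which corrects background, equalizes array distributions and summarizes probes, and examined with limma, per the submitters' processing notes; the sources used here give no versions. The design text mentions a normalization by Twist1 whose form is not given, so whether it changed the deposited log2 values is unknown. Array medians ran from 6.31 to 6.42; precision is limited by the number of arrays.

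Of 23811 probe sets, 20852 carry 1 gene symbol, 1440 several and 1519 are not listed; the brightest probe set per symbol by mean left 19297 genes, with no filter. Models with group and labelled batch were fitted to all 15 arrays in limma 3.58.1 (R 4.3.3) (9 residual and 3.93 prior degrees of freedom). P-values were adjusted over all genes by Benjamini-Hochberg, and genes under 0.05 were called. The comparisons were the 10 pairs of groups and the mean of the 4 forms against VEC. The fit was tested on simulated data.

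The members and lists were chosen with earlier results of these data known. Named genes were the members, Twist1, the called cell markers, genes of set roles, the 8 most like the members and the 6 neighbours per side. Also named were the 4 with the smallest pooled p in each list of signalling factors, sensors, effectors and restraint genes. Genes named beside counts of 5 or fewer and those most like Ifit1 were chosen after their values were seen. Promoters are RefSeq's (GRCm38.p6), aligned with Biopython 1.88 and searched on both strands. Figures used matplotlib 3.10.9. Alternatives were no batch term, a block for the replicate letter (batch kept or dropped), Twist1 as a covariate, the compared arrays alone, quantile normalization again, median centring, the dimmest 33.3% of genes left out, every probe set, robust moderation with a variance trend, each batch alone and each array left out.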

Additional observations from a re-analysis of the deposited data

How the results depend on the processing

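Of 1177 member differences recomputed under alternatives, 1028 kept their direction and their side of the threshold, and 18 turned direction, none of them a called value. The rise of Ifit3 in WT stayed called in 11 of 12 alternatives other than left-out arrays and with each of the 15 arrays left out. The exception was batch A alone, and what caused the lost calls was not tested unless stated.

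The number of members called, which against VEC was 4 (WT), 2 (AQA), 1 (DQD), 1 (F191G) and 3 (pooled forms), moved as follows. With Twist1 as a covariate it was 1, 0, 0, 0 and 1. The Ifit1 difference then went from 1.96 to 0.967 in WT and from 1.92 to 1.04 in the pooled forms, and that of Ifit3 from 5.02 to 4.01 in WT, 3.49 to 2.79 in AQA, 2.77 to 1.79 in DQD and 3.76 to 2.86 in F191G. In batch A alone, with fewer arrays and 1 each for DQD and F191G, it was 0 in all of these and 0 for DQD against WT, where the full fit gave 2. Batch B alone has 1 array each for VEC, WT and AQA, so its spread comes only from the pairs of DQD and F191G arrays, and the lone arrays are assumed to vary like them. There it was 2 (WT), 0 (AQA), 2 (DQD) and 2 (F191G), and 1 each for AQA, DQD and F191G against WT and for DQD and F191G against AQA. With only the compared arrays it was 1 in WT and 0 in AQA, in DQD and for DQD against WT. Without a batch term it was 2 in DQD and 1 for F191G against WT. In DQD it was 2 with all probe sets or median centring and 0 with quantile normalization again. A variance trend with robust moderation gave 0 in DQD and F191G. Ifit3b is among the dimmest 33.3% of genes, so leaving these out gave no count.

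The shared letters A, B and C were checked as pairs: deviations from group means correlated from -0.85 to 0.22 over 30 pairs (median -0.06, 6 over 0.1). DQD with F191G was positive under each letter (0.17, 0.22 and 0.18). Batch was not removed from these deviations, so they cannot decide whether arrays of a letter belong together. The main fit used no pairing. With the replicate block and batch, 0 members were called in DQD and F191G and 1 in the pooled comparison, and with the replicate block without batch 0 in DQD.

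With each array left out in turn, the counts ran from 2 to 4 (WT), 0 to 3 (AQA), 0 to 2 (DQD), 0 to 2 (F191G), 0 to 4 for the pooled forms, 0 to 3 for DQD against WT and 0 to 1 for F191G against WT.

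Uncalled differences near 0 turned direction. Ifit1 in AQA against VEC was -0.13 with Twist1 as a covariate and -0.19 to 1.02 over left-out arrays. Ifit1 in F191G against DQD was -0.0137 with median centring, -0.0536 in batch B and -0.45 to 0.41 over left-out arrays. Ifit1 in DQD against WT was -0.18 in batch A. Ifit2 in AQA against WT was -0.0292 in batch A and -0.0567 to 0.129 over left-out arrays, and in F191G against WT 0.0942 in batch B. Ifit3 in F191G against AQA was -0.27 in batch A, -0.0648 with the replicate block and batch, and -0.17 to 0.72 over left-out arrays. Ifit3b in that comparison was 0.37 in batch B and -0.76 to 0.023 over left-out arrays. Of the 8 genes most like the members, 5 remained with median centring, 6 without WT A and 0 with likeness to Ifit1 alone, an alternative chosen after seeing the data. No detection calls were used, so how far the low readings of Ifit3b and Ifit1bl2 stood above background is unknown.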
